A study of Daphnia magna with 16 samples.

Results

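The comparison described here set the mono-allelic mutant T+ of the water flea Daphnia magna against its parent, the wild type clone W, on 8 of the 16 arrays of the series. Its members were chosen by genotype alone: 4 arrays of T+ (genotype Clone 13 +/-) and 4 arrays of W (genotype F +/+), each hybridised with RNA from the whole body of a single female. T+ was made from clone F with CRISPR-Cas9 and carries a small insertion or deletion in 1 allele of the tryptophan hydroxylase gene (TRH), with the other allele intact. The other 8 arrays belong to clones 16 and 17, which carry such mutations in both alleles (-/-). They entered the model as an estimate of the spread and are used below only where T+ is set against them. Each genotype is a single clone, so a change carried by the clone for another reason cannot be told apart from one that goes with the TRH mutation. The labels give the age of every female as 5 days in one field and as 4 days in another, whereas the study's methods describe adults taken after they had reproduced and freed of their brood. The labels number the replicates 3, 5, 7 and 9 in each clone.

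TRH is the enzyme that commits tryptophan to the synthesis of serotonin, a neurotransmitter and hormone that in crustaceans acts on moulting, feeding and reproduction. An intact allele leaves the animal able to make serotonin, and the study treats T+ as a mutant whose serotonin level is normal. Daphnids grow by moulting throughout adult life. At each moult a new cuticle of chitin and chitin-binding proteins is laid down and the old one is digested by chitinases, so transcripts of these proteins in a whole animal depend on where it stands in the moult cycle. No source used here pairs a probe with TRH, so the targeted gene could not be checked on the arrays.

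An Agilent one-colour array reads the RNA of one sample as the brightness of each probe, and levels of different probes cannot be compared with each other. All values are log2 signals after quantile normalization, so that a difference of 1 is a doubling. Only probes brighter than 95% of the negative controls on 4 or more of the 16 arrays were tested (17286 of 51424 probes). A call needed an adjusted p-value under 0.05 (limma, Benjamini-Hochberg over all tested probes) together with a change of 1.5-fold or more. A supplementary file of the study pairs 51 probes with a gene name, of which 45 were tested, and the remaining probes are unnamed here. That list was drawn up by the study from these same arrays, so its counts describe the listed genes and are not independent evidence of their direction. In RNA from whole animals, fewer cells of a type and less RNA per cell cannot be told apart.

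T+ females differed from W females mainly by lower signals, a balance that turned when T+ replicate 5 was left out. Of the 17286 tested probes, 223 were called lower in T+ (1.29%) and 55 were called higher (0.318%), so that 80.2% of the calls were decreases. The median log2 fold change over all tested probes was 0.06. At an unadjusted p-value below 0.05 the order was the opposite, with 823 probes lower and 1301 higher. Without W replicate 7, an array with unusual signals described below, these counts were 839 and 855. The median over all tested probes was then -0.02. The decreases were large, with a median of -2.98 on the log2 scale over the called probes, and 109 of them were lower by at least 3. The 55 increases had a median of 1.51. The arrays of T+ and W did not overlap for 222 of the 223 probes called lower and for all 55 called higher, where 3.38% of all tested probes had every T+ array below every W array and 2.41% had it above, 5.79% in all. The calls were made on these same arrays, so this separation follows largely from them and adds no support.

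Many of the decreases ended at the limit of what the array can measure. Of the 223 probes called lower, 180 were well above background on all 4 W arrays, but 96 were well above background on no T+ array. Such a probe gives only a bound for T+. Among the 8145 tested probes that were well above background on all 8 arrays, 84 were called lower (1.03%) and 15 higher (0.184%), with medians of -1.71 and 0.90 on the log2 scale. The median over these 8145 probes was -0.02. The share of decreases was therefore also high among probes measured in every animal. The number of probes well above background was 12240 ± 876 on the T+ arrays and 12433 ± 1763 on the W arrays (SD, n = 4 each; exact permutation test, two-sided, p = 0.857, where 0.0286 is the smallest possible).

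T+ replicate 5 stood apart from the other T+ females when the T+ arrays were compared among themselves. In T+ replicate 5, 1620 tested probes lay more than 1 log2 unit above the mean of the other 3 T+ arrays and 1729 lay more than 1 below it. For T+ replicates 3, 7 and 9 these counts were between 653 and 966. Counted in the same way within W, 1668 probes lay above and 1719 below for W replicate 3, and 1442 and 3379 for W replicate 7. The counts were 1314 and 606 for W replicate 5, and 1088 and 744 for W replicate 9. Clone 17 replicate 5 had 1757 and 2153 within its clone. Counts of this size were thus not confined to T+ replicate 5. For correlations, the 17270 probes with a value on every array were centred per probe on the mean of the 8 T+ and W arrays. T+ replicates 3, 7 and 9 then correlated with each other at Pearson r of 0.80 to 0.82, whereas T+ replicate 5 correlated with them at -0.55 to -0.44. This centring includes W and lowers correlations between arrays on average, so values below 0 can come in part from it. The W females also fell apart, with r between -0.23 and 0.61. W replicates 5 and 7 were the most alike (0.61), followed by W replicates 3 and 9 (0.30). The correlations are across probes, which are not independent, and describe these 8 arrays only. The median SD per probe was 0.27 over the 4 T+ arrays, 0.18 over T+ replicates 3, 7 and 9, and 0.41 over the 4 W arrays.

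**Figure D1:**
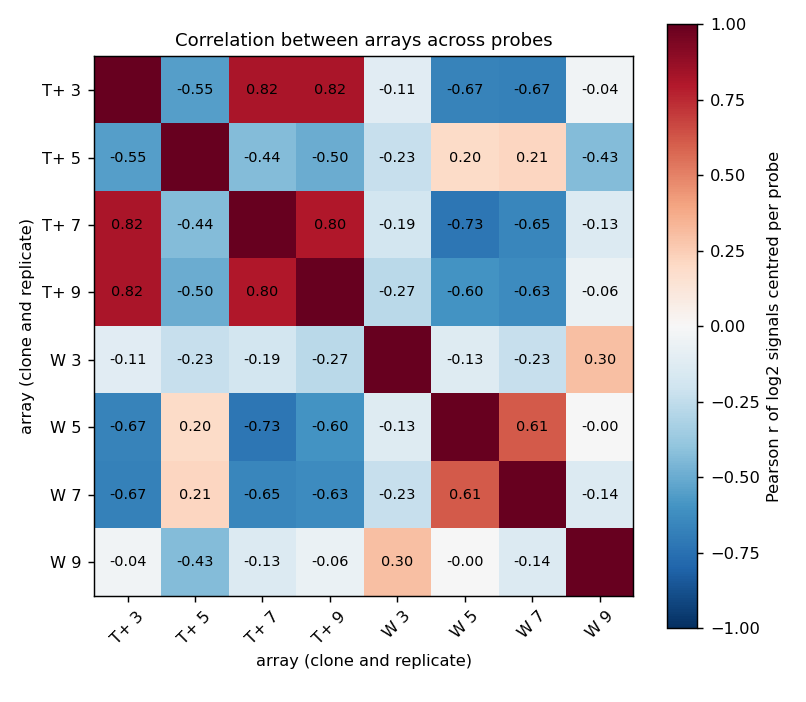
Pearson correlation between the 8 arrays of T+ and W, with colour from -1 to 1. Replicates 3, 5, 7 and 9 of each clone are on both axes. The log2 signals of 17270 probes were centred per probe on the mean of the 8 arrays. T+ replicates 3, 7 and 9 form a block at 0.80 to 0.82, and T+ replicate 5 lies below 0 with each of them.

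Without T+ replicate 5 the balance of the comparison turned. With 15 arrays and 17147 tested probes, 315 probes were called lower in T+ (1.84%) and 476 higher (2.78%), and the share of decreases among the calls was 39.8% in place of 80.2%. The decreases were largely the same probes: 215 were called lower with and without T+ replicate 5, and 53 were called higher in both. A further 423 probes were called higher only without it and 100 were called lower only without it. No probe was called in opposite directions. Of the 423 probes, T+ replicate 5 had a signal below the W mean for 280 and above every W array for 50. Of the 476 increases without T+ replicate 5, 224 were well above background on no W array, and 96 were well above background on all 3 T+ and all 4 W arrays. Their median was 2.63 on the log2 scale, and that of the 315 decreases was -2.40.

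The counts also moved when other single arrays were left out. The 223 decreases became 131 without T+ replicate 7, 137 without W replicate 5 and 144 without W replicate 9. The 55 increases became 18, 13 and 22 without T+ replicates 3, 7 and 9, and 21 without W replicate 7. Arrays of the other clones changed them through the spread, the background filter and the normalization, to 97 increases without clone 17 replicate 5 and to 35 without clone 16 replicate 3. The decreases outnumbered the increases without each of these arrays except T+ replicate 5. W replicates 3, 5 and 9 lay at position 1 along their slides and the T+ arrays at positions 2 to 4, so that place on the slide and clone cannot be told apart there. The median local background was 35 to 37 units on those 3 W arrays, 44 to 46 on the T+ arrays and 45 on W replicate 7, whose slide and position were not given in the files used. W replicate 7 had 9888 probes well above background, against 11222 to 14668 on the other arrays of the series. Before normalization, the 95th percentile of its negative controls was 7.01 on the log2 scale, against 4.99 to 5.87 on the others. Its median log2 processed signal was 5.29, against 3.37 to 4.16 on the others.

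**Figure D2:**
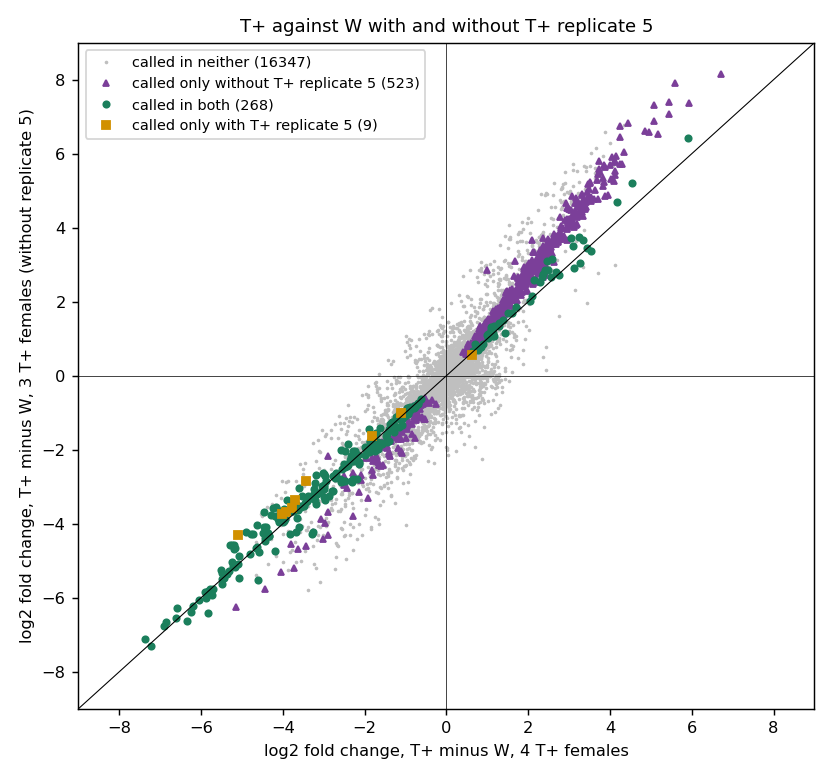
Log2 fold change of T+ over W for each probe tested in both fits, with all 4 T+ females (horizontal) and without T+ replicate 5 (vertical), and the line of equal values. The 268 probes called in both lie near the line, and most of the 523 called only without T+ replicate 5 lie above it on the side of higher signal in T+. One further probe called with T+ replicate 5 was not tested without it.

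The named genes were lower in T+ on nearly every count. Of the 45 tested probes with a name, 32 were called lower, beside 1.29% of all tested probes, and none was called higher. The study took the list from probes it found deregulated on these same arrays. A high share and a low median thus follow largely from that choice and are not independent evidence. Their median log2 fold change was -1.89 (-1.95 without T+ replicate 5), beside 0.06 over all tested probes. The T+ and W arrays did not overlap for 38 of the 45, beside 5.79% of all tested probes. Relative to the W mean, the median over the 45 probes was -2.02, -3.24, -1.97 and -1.93 in T+ replicates 3, 5, 7 and 9. In W replicates 3, 5, 7 and 9 it was 0.10, -0.10, -0.20 and 0.17. All 4 T+ females thus stood below all 4 W females, T+ replicate 5 the furthest. W replicate 5 or 7 was the lowest W array for 33 of the 45 probes. Without T+ replicate 5, 31 were called lower and 1 higher. Of the 32 calls, 21 were kept without each of the 16 arrays in turn in every fit that tested the probe.

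**Figure D3:**
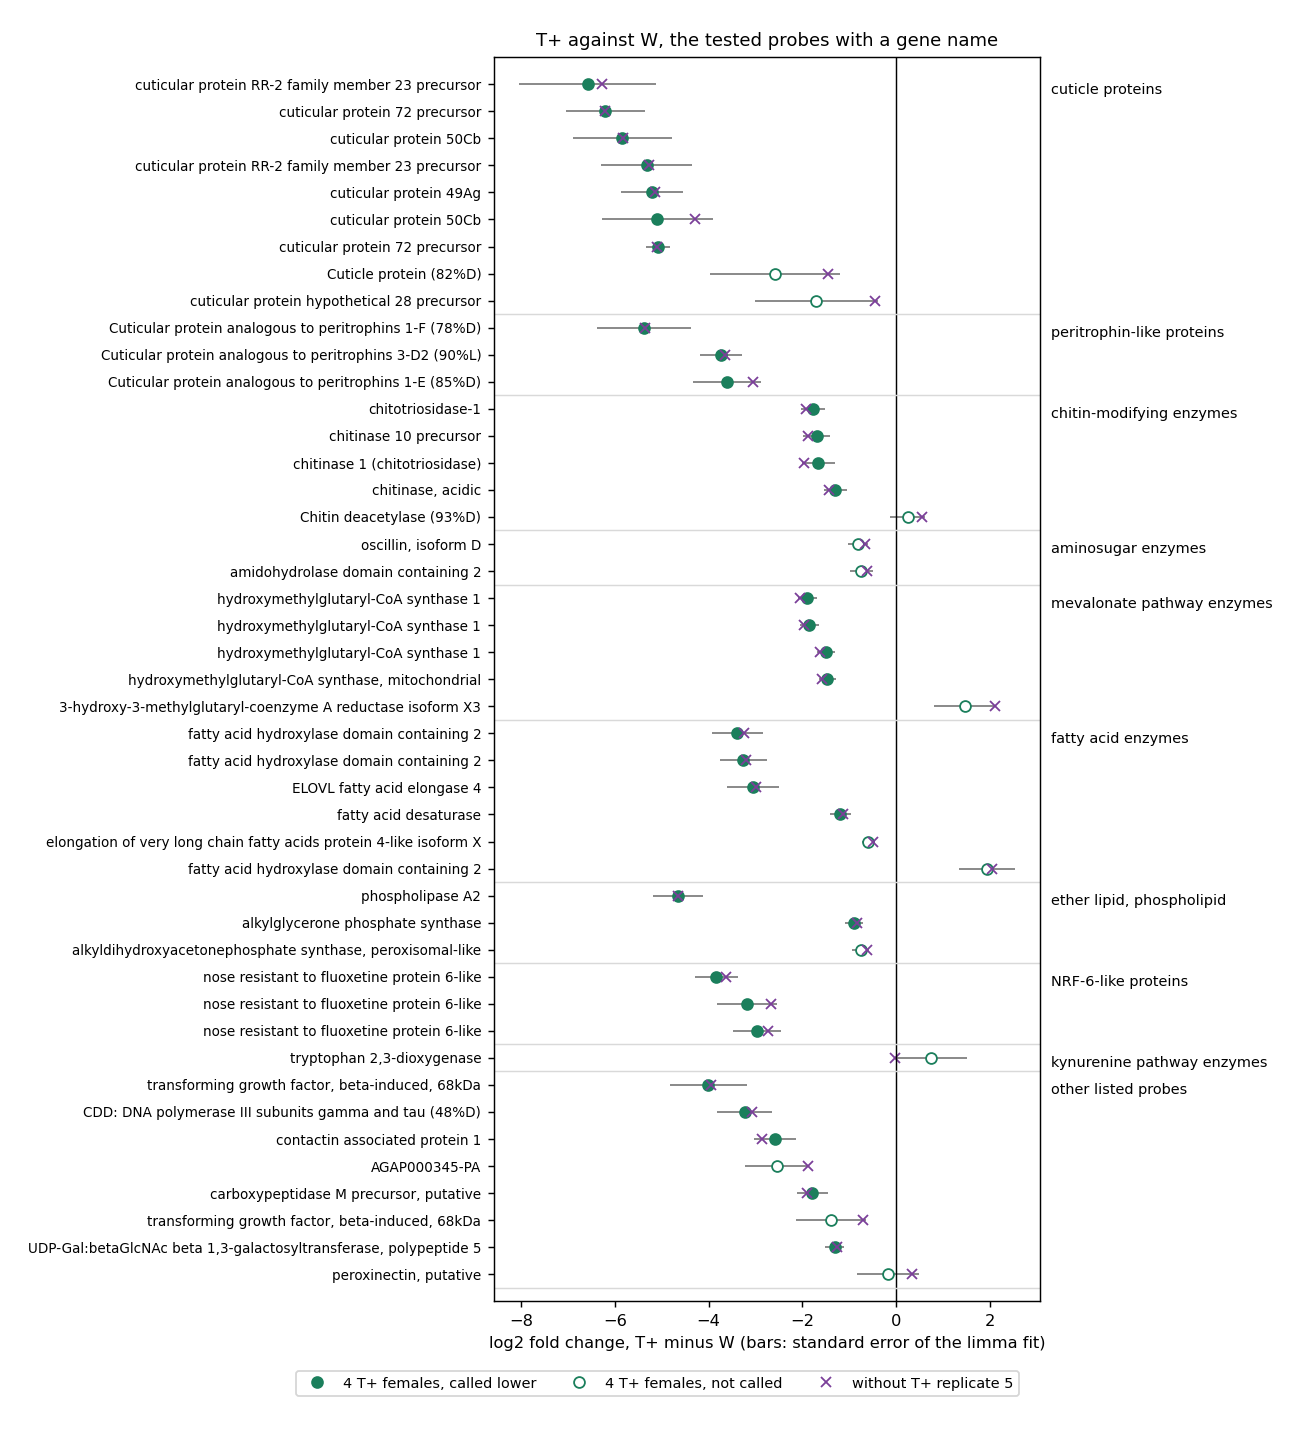
Log2 fold change of T+ over W for the 45 tested probes with a gene name (circles, with the standard error of the limma fit; filled where called lower) and the same without T+ replicate 5 (crosses), grouped by function from top to bottom. The cuticle proteins reach -6.58, and 4 probes lie at or above 0.25.

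Cuticle proteins fell furthest. Of 9 probes, all of them tested, 7 were called lower, with a median log2 fold change over the 9 of -5.21. The median was -3.37 when the 4 probes that no T+ array measured were set to their bound. Most of these proteins carry the Rebers-Riddiford chitin-binding domain of arthropod cuticle, and the RR-2 form is known from hard cuticle in insects. The probe of cuticular protein RR-2 family member 23 of gene Dapma7bEVm001220 read 6.41, 4.81, 5.00 and 6.75 in T+ replicates 3, 5, 7 and 9, against 10.38, 13.69, 12.91 and 12.32 in W replicates 3, 5, 7 and 9. The lowest W female stood 3 log2 units or more above every T+ female, and the W females spread over a wider range than T+. The probe was well above background on 2 T+ arrays. T+ differed from W by -6.58 on the log2 scale (SE 1.47, adjusted p = 0.038). Its call was lost without any 1 of 9 arrays, W replicates 5, 7 and 9 among them, with adjusted p up to 0.131.

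Cuticular protein 72 was measured by probes of different genes with the same name. That of gene Dapma7bEVm018552 read 3.71, 3.82, 3.73 and 3.72 in T+ and 10.94, 9.10, 8.71 and 11.06 in W, well above background on no T+ array and on all 4 W arrays. T+ was at least 14.2-fold lower (fitted log2 fold change -6.21, SE 0.84, adjusted p = 0.00173). This bound sets the W mean against the dimmest probe still marked well above background on each T+ array, or the probe's own signal where that is higher. The probe of Dapma7bEVm005358 read 3.82 to 4.06 in T+ and 8.43 to 9.53 in W and was at least 7.34-fold lower, with the smallest adjusted p of the named probes (3.5e-07). Clones 16 and 17 averaged 3.90 and 4.07 on it, near the T+ level. The probe was well above background on no T+ array and on all 4 W arrays. Of the 16 fits that left out 1 array, 12 tested it. It passed the background filter through W, so its small adjusted p is not independent evidence of a decrease.

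Cuticular protein 49Ag (gene Dapma7bEVm009931) was measured on all 8 arrays, and so gives a fold change rather than a bound. It read 9.04, 8.61, 8.67 and 8.75 in T+ and 14.78, 13.56, 13.42 and 14.14 in W. The T+ females lay within 1 log2 unit of each other and far below W, with a log2 fold change of -5.21 (SE 0.66, adjusted p = 0.00134), or 36.9-fold. Clone 16 averaged 9.77 and clone 17 averaged 8.91 on this probe. The call held without each array in turn, with log2 fold changes of -5.40 to -4.94.

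Cuticular protein 50Cb and the second RR-2 family member 23 gene followed the same pattern. The 50Cb probe of Dapma7bEVm002510 read 3.71, 3.61, 3.62 and 3.66 in T+ and 9.34, 9.60, 9.89 and 9.13 in W, so T+ was at least 10.3-fold lower (adjusted p = 0.011). The RR-2 family member 23 probe of Dapma7bEVm008546 read 4.26, 3.82, 3.83 and 4.00 in T+ and 8.69, 10.14, 9.94 and 8.42 in W, at least 9.04-fold lower (adjusted p = 0.0117). Both were called without each array in turn. The other 50Cb probe (Dapma7bEVm009626) read 9.14, 5.25, 7.42 and 8.72 in T+ and 13.70, 11.82, 11.97 and 13.42 in W, with 3 T+ arrays well above background. Its call (log2 fold change -5.09, adjusted p = 0.0466) was lost without 12 of the 16 arrays, among them T+ replicate 5 (adjusted p = 0.0577).

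The 2 cuticle probes that were not called had high signal in all females and split the animals within each clone. The probe named Cuticle protein (Dapma7bEVm002950) read 13.18, 8.02, 11.70 and 12.76 in T+, against 16.16, 12.27, 12.04 and 15.48 in W. T+ replicate 5 was far below the other T+ females, and W replicates 5 and 7 were more than 3 log2 units below W replicates 3 and 9. The log2 fold change of -2.57 (SE 1.39) had an adjusted p of 0.494. Cuticular protein hypothetical 28 (Dapma7bEVm009953) gave 13.22, 7.83, 12.29 and 12.98 in T+ and 15, 11.77, 11.49 and 14.84 in W, with a log2 fold change of -1.70 (adjusted p = 0.661). Without T+ replicate 5 these changes were -1.44 and -0.44.

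**Figure D4:**
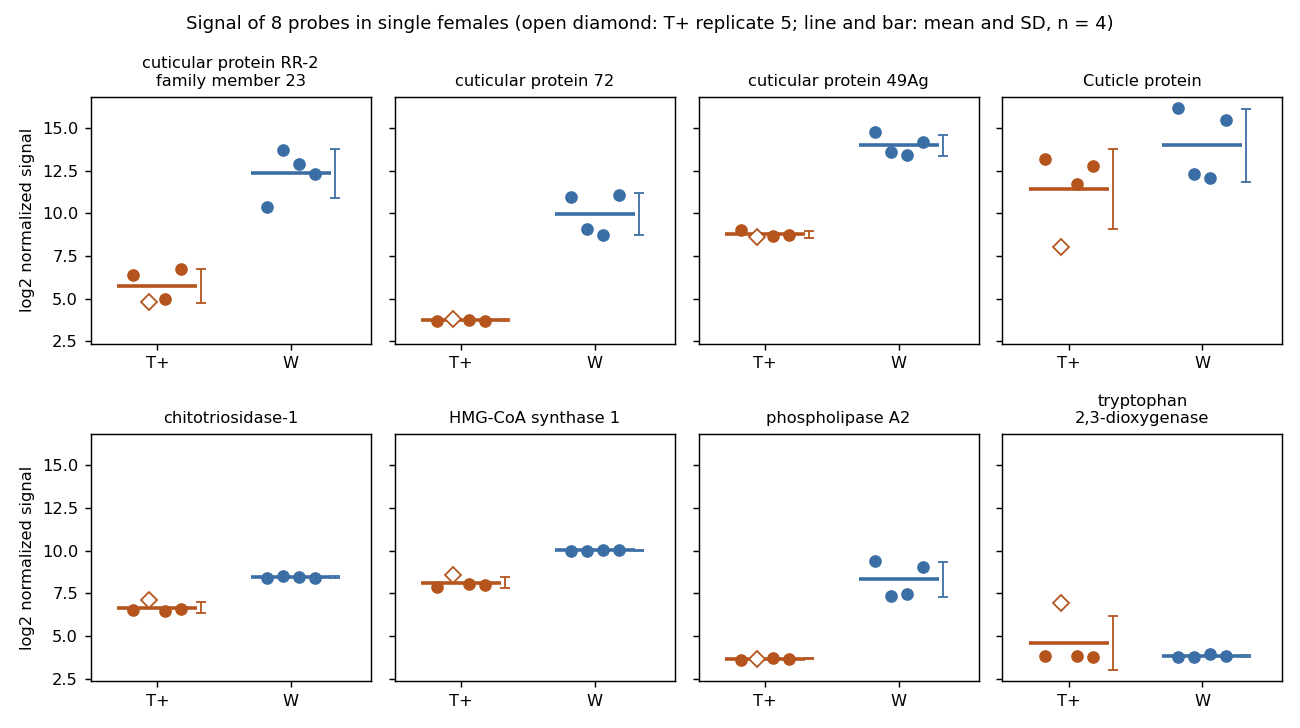
Log2 normalized signal of 8 probes in each female of T+ (left) and W (right); lines are means, bars are SD (n = 4), and the open diamond is T+ replicate 5. The panels of cuticular protein 72 and phospholipase A2 show T+ at the floor of the array, the Cuticle protein panel shows overlapping clones, and in the tryptophan 2,3-dioxygenase panel only T+ replicate 5 is raised.

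Peritrophin-like proteins, which bind chitin through peritrophin A domains in cuticle and gut lining, also fell. Of 4 listed probes 3 were tested and all 3 were called lower, with a median log2 fold change of -3.74 (-3.06 with the 2 unmeasured in T+ at their bound). The probe of the cuticular protein analogous to peritrophins 1-F read 3.77, 3.77, 3.85 and 3.86 in T+ and 9.85, 8.10, 8.64 and 10.15 in W, so T+ was at least 8.36-fold lower (adjusted p = 0.0141). Its adjusted p was 0.0509 without W replicate 9. The 3-D2 probe (Dapma7bEVm015400) read 4.45, 3.68, 3.72 and 3.77 in T+ and 7.75, 6.62, 8.28 and 7.91 in W, at least 2.86-fold lower (adjusted p = 0.00123). A second probe of that gene was too dim to be tested and read 3.84 to 3.96 in T+ and 5.45 to 7.80 in W. The 1-E probe, well above background on 3 T+ arrays and all 4 W arrays, read 7.87, 5.57, 7.36 and 8.13 in T+, against 11.69, 9.97, 9.89 and 11.77 in W. T+ was lower by a fitted -3.60 on the log2 scale (SE 0.73, adjusted p = 0.0213), with adjusted p of 0.0655, 0.0653 and 0.0702 without T+ replicate 7, W replicate 3 and W replicate 9.

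Chitinase, which digests chitin when the old cuticle is shed, fell less than the called cuticle proteins. All 4 tested chitinase probes report on a single gene, Dapma7bEVm014956, and are not independent of each other. The probe named chitotriosidase-1, after the mammalian chitinase, read 6.50, 7.11, 6.47 and 6.57 in T+ and 8.40, 8.50, 8.44 and 8.38 in W. The 4 W females lay close together, and T+ replicate 5 was the T+ female nearest to them. T+ was 3.40-fold lower (log2 -1.77, SE 0.25, adjusted p = 0.00283). The probes of the gene named chitinase 10 and acidic chitinase gave log2 fold changes of -1.69 and -1.29 with adjusted p of 0.00755 and 0.0175. By animal, chitinase 10 read 5.86, 6.67, 5.82 and 6.06 in T+ and 7.81, 7.67, 8.01 and 7.70 in W, with 1 T+ array well above background. The chitinase 1 probe spread more widely in T+, at 4.01, 5.97, 5.07 and 5.08 in T+ and 6.88, 6.82, 6.47 and 6.60 in W. No T+ array and 3 W arrays were well above background, and T+ was at least 1.45-fold lower (adjusted p = 0.0289). Acidic chitinase read 7.25, 8.10, 7.73 and 7.71 in T+ and 8.87, 8.93, 9.07 and 9.07 in W. T+ replicate 5 was the highest T+ female on all 4 probes. The calls of chitotriosidase-1 and chitinase 10 held without each array in turn, whereas those of acidic chitinase and chitinase 1 were lost without 5 and 7 of the 16 arrays, with adjusted p up to 0.0635 and 0.0883.

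Chitin deacetylase, which removes acetyl groups from chitin and so alters its structure, was not called. Its probe read 8.62, 7.62, 8.96 and 8.86 in T+ and 8.36, 7.95, 8.07 and 8.69 in W (log2 fold change 0.25, SE 0.37, adjusted p = 0.831). The clones overlapped. A probe of chitin deacetylase 2 was too dim to be tested, at 3.74 to 3.83 in T+ and 5.08 to 6.12 in W. The enzymes that recover the sugar units of chitin had smaller differences. Oscillin, a glucosamine-6-phosphate isomerase, read 13.56, 12.96, 13.37 and 13.54 in T+ and 14.48, 14.09, 13.70 and 14.37 in W, and the log2 difference of -0.80 (SE 0.22) had an adjusted p of 0.0959. Amidohydrolase domain containing 2, which removes the acetyl group of N-acetylglucosamine-6-phosphate, read 10.31, 9.81, 10.16 and 10.42 in T+ and 11.01, 10.87, 10.58 and 11.17 in W, a log2 difference of -0.73 (SE 0.25, adjusted p = 0.205). On both probes all 4 T+ females were below all 4 W females without reaching the threshold. Without clone 17 replicate 5 their adjusted p were 0.0465 and 0.0282.

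The mevalonate pathway builds isoprenoids from acetyl-CoA, among them the precursor of methyl farnesoate, the crustacean juvenile hormone. Hydroxymethylglutaryl-CoA synthase, which makes its substrate, was lower in T+ on all 4 of its probes, which belong to the single gene Dapma7bEVm000199. The probe with the largest change read 7.86, 8.60, 8.05 and 7.96 in T+ and 9.96, 9.96, 10.06 and 10.06 in W. The W females were nearly alike and every T+ female stood more than 1 log2 unit below them, T+ replicate 5 the closest. T+ was 3.71-fold lower (log2 -1.89, SE 0.20, adjusted p = 0.000574). The other 3 probes gave -1.85, -1.49 and -1.46 with adjusted p of 0.000574, 0.00163 and 0.00115. The first of them read 6.90, 7.27, 7.01 and 6.61 in T+ and 8.84, 8.75, 8.82 and 8.76 in W, and the second read 6.99, 7.37, 6.97 and 6.52 in T+ and 8.63, 8.34, 8.35 and 8.49 in W. The third, named for the mitochondrial form, read 8.77, 9.31, 8.86 and 8.90 in T+ and 10.47, 10.31, 10.42 and 10.49 in W. On each of the 4 probes T+ replicate 5 was the T+ female nearest to W, and no T+ female reached the lowest W female. All 4 calls held without each array in turn, with adjusted p of at most 0.0088. Clones 16 and 17 averaged 9.01 and 8.47 on the probe with the largest change, where T+ averaged 8.12 and W averaged 10.01.

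The next enzyme of that pathway, hydroxymethylglutaryl-CoA reductase, which is regarded as rate-limiting, did not follow the synthase. Its probe read 6.53, 3.81, 6.22 and 6.45 in T+ and 4.70, 4.57, 3.80 and 4.04 in W. T+ replicates 3, 7 and 9 were above every W female and T+ replicate 5 was at the floor. With all 4 T+ females the difference was 1.48 on the log2 scale (SE 0.66, adjusted p = 0.378), and without T+ replicate 5 it was 2.12 (adjusted p = 0.0483) and passed the threshold. The probe was well above background on 2 T+ arrays and on no W array. The remaining enzymes of the pathway on the list, cytosolic acetyl-CoA acetyltransferase, phosphomevalonate kinase and diphosphomevalonate decarboxylase, were too dim to be tested. Of these, the acetyltransferase read 3.73 to 3.77 in T+ and 5.18 to 6.51 in W.

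Among enzymes of fatty acids, 4 of 6 tested probes were called lower and none higher, with a median log2 fold change of -2.12 (-0.99 with 1 probe at its bound). Fatty acid hydroxylase domain containing 2 is a membrane protein of the fatty acid hydroxylase family, and its gene Dapma7bEVm010304 has a pair of probes. The first read 6.81, 5.68, 5.21 and 6.69 in T+ and 8.85, 10.24, 9.79 and 9.05 in W (log2 fold change -3.39, SE 0.54, adjusted p = 0.00531), and the second gave -3.26 (SE 0.50, adjusted p = 0.00403) from signals of 6.97, 6.44, 5.92 and 6.98 in T+ and 9.21, 10.41, 10.21 and 9.50 in W. All T+ females were below all W females on both, which were well above background on 2 and 3 T+ arrays. Another gene of the same name, Dapma7bEVm004383, differed in the opposite direction. It read 8.29, 8.10, 8.80 and 8.41 in T+ and 6.46, 6.43, 5.62 and 7.29 in W, without overlap, but the log2 difference of 1.95 (SE 0.60) had an adjusted p of 0.155. Without clone 16 replicate 5 that p was 0.0165.

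The elongases and the desaturase of the list lengthen fatty acids and add double bonds to them. ELOVL fatty acid elongase 4 read 4.41, 3.69, 3.76 and 3.65 in T+ and 7.66, 6.57, 6.23 and 7.24 in W, at least 1.75-fold lower (adjusted p = 0.0115). It was well above background on no T+ array and on 3 W arrays, and 12 of the 16 fits without 1 array tested it. The fatty acid desaturase was measured on all 8 arrays, at 6.78, 6.59, 6.73 and 6.90 in T+ and 7.89, 7.32, 8.69 and 7.84 in W. T+ was 2.27-fold lower (log2 -1.19, SE 0.23, adjusted p = 0.0158), and without T+ replicate 7 the adjusted p was 0.0568. The second elongase, at -0.59 (SE 0.15), was not called (adjusted p = 0.0703).

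Phospholipase A2, which releases fatty acids such as arachidonic acid from membrane phospholipids, was at the floor in every T+ female. It read 3.62, 3.68, 3.69 and 3.66 in T+ and 9.37, 7.37, 7.47 and 9.05 in W. T+ was at least 4.57-fold lower (fitted log2 fold change -4.65, SE 0.53, adjusted p = 0.000954), and the call held without each array in turn. Clones 16 and 17 averaged 4.18 and 4.30. Alkylglycerone phosphate synthase, the enzyme that forms the ether bond of ether lipids, read 7.12, 7.16, 7.46 and 7.62 in T+ and 8.16, 8.20, 8.13 and 8.46 in W. T+ was 1.86-fold lower (log2 -0.90, SE 0.19, adjusted p = 0.0257), with adjusted p of 0.0928, 0.0637, 0.065 and 0.0778 without T+ replicates 3 and 7 and W replicates 5 and 9. A second gene for this enzyme read 7.78, 7.14, 7.62 and 7.66 in T+ and 8.30, 8.33, 8.11 and 8.48 in W, without overlap, and the difference of -0.75 (SE 0.18) was not called (adjusted p = 0.0535).

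The nose resistant to fluoxetine 6 (NRF-6) proteins are membrane proteins named after Caenorhabditis elegans mutants that resist fluoxetine, an inhibitor of serotonin uptake. All 3 probes of the list, from 2 genes, were called lower in T+. The probe of Dapma7bEVm005479 read 5.02, 3.82, 3.92 and 4.88 in T+ and 8.89, 7.86, 7.71 and 8.53 in W, at least 4.36-fold lower (adjusted p = 0.00121). In T+ and in W, replicates 3 and 9 were the higher pair and replicates 5 and 7 the lower. No T+ array was well above background on this probe, so only the order in W was measured. The first probe of Dapma7bEVm001105 read 7.42, 4.92, 6.44 and 6.95 in T+ and 10.11, 9.10, 9.12 and 10.13 in W, with a log2 fold change of -3.18 (SE 0.64, adjusted p = 0.0203). Its adjusted p was 0.0672, 0.0608 and 0.0663 without T+ replicate 7, W replicate 3 and W replicate 9. The second probe of the gene was at least 2.46-fold lower (adjusted p = 0.00802).

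The kynurenine pathway is the other main route of tryptophan and competes with serotonin synthesis for it. Tryptophan 2,3-dioxygenase, its first enzyme, read 3.83, 6.93, 3.83 and 3.78 in T+ and 3.76, 3.80, 3.94 and 3.85 in W (log2 fold change 0.76, SE 0.75, adjusted p = 0.741). Kynurenine formamidase, which acts next, was not tested and read 4.00, 7.09, 3.71 and 3.89 in T+ and 3.87, 4.01, 3.79 and 3.77 in W. On both probes T+ replicate 5 was the only female of the 8 above the floor. Without it the log2 fold change of the dioxygenase was -0.023. On the dioxygenase, clone 16 averaged 6.28, from 5.18 to 7.09 by animal. Clone 17 averaged 4.54, but only its replicate 5 was raised, at 6.67. Clone 17 replicates 3, 7 and 9 read 3.82, 3.80 and 3.87.

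**Figure D5:**
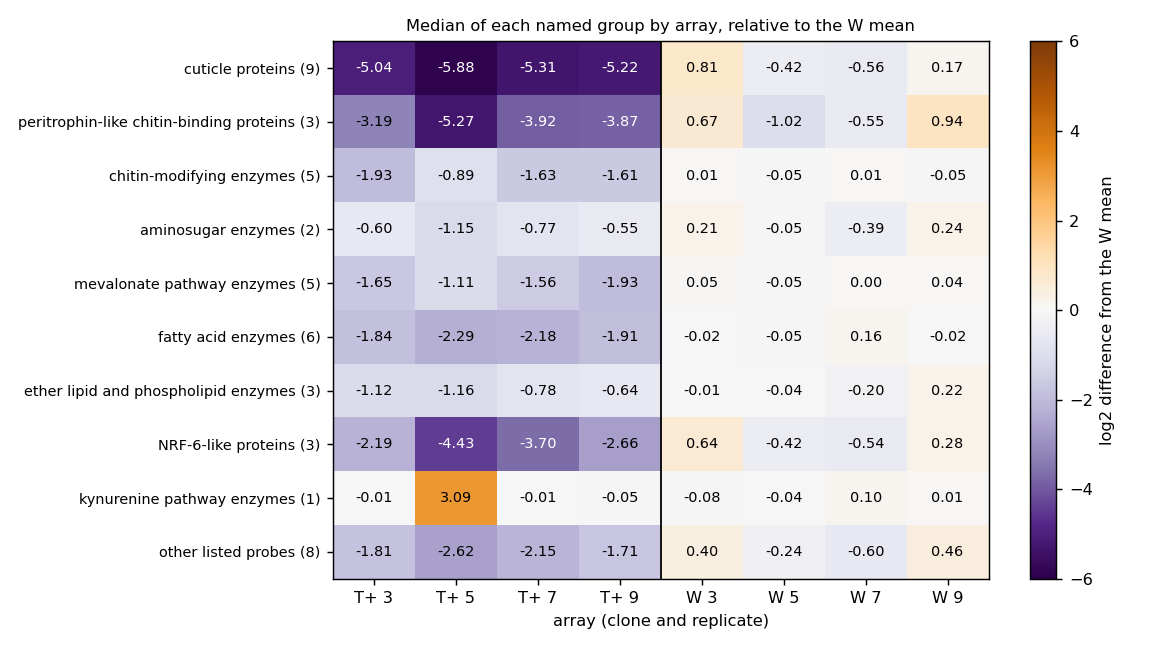
Median over the tested probes of each named group on each of the 8 arrays, as the log2 difference from the W mean (rows are groups with the number of tested probes in brackets, columns are arrays, colour from -6 to 6). T+ replicate 5 is the lowest T+ female for cuticle, peritrophin-like and NRF-6-like probes, the least lowered for chitin-modifying and mevalonate enzymes, and the only one raised for the kynurenine pathway. No T+ array was well above background on 4 of the 9 cuticle, 2 of the 3 peritrophin-like and 2 of the 3 NRF-6-like probes. In the chitin-modifying row and in the mevalonate row, 4 of the 5 probes belong to 1 gene.

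The other 8 listed probes, of mixed function, were all lower on average in T+, and 5 were called. Transforming growth factor beta-induced, a secreted protein of the extracellular matrix in vertebrates, was at least 3.54-fold lower on the probe of Dapma7bEVm000310, which read 4.09, 3.79, 3.78 and 4.09 in T+ and 7.29, 8.54, 8.74 and 7.22 in W (adjusted p = 0.024). That call was lost without 5 of the 16 arrays, with adjusted p up to 0.0807. A probe of the same name from gene Dapma7bEVm011255 read 8.99, 5.68, 7.81 and 8.62 in T+ and 9.79, 8.48, 7.98 and 10.40 in W, with overlap. It was not called, at -1.39 on the log2 scale (SE 0.75, adjusted p = 0.494) and -0.69 without T+ replicate 5. Contactin associated protein 1, an adhesion protein of nerve fibres in vertebrates, read 5.89, 6.57, 5.01 and 5.49 in T+ and 9.01, 7.85, 7.69 and 8.76 in W (fitted log2 fold change -2.59, SE 0.45, adjusted p = 0.00821), and was well above background on 1 T+ array. Carboxypeptidase M, which trims basic residues from peptides, read 8.34, 8.98, 8.64 and 8.61 in T+ and 10.05, 10.62, 10.67 and 10.39 in W. Its log2 fold change was -1.79 (SE 0.33), with adjusted p of 0.0136 and of 0.0521 without T+ replicate 3. T+ replicate 5 was again the T+ female nearest to W on these last 2 probes. The probe named AGAP000345-PA was not called (adjusted p = 0.0969), at 6.89, 3.90, 5.91 and 6.81 in T+ and 8.59, 8.31, 7.85 and 8.90 in W. The clones did not overlap on it, and T+ replicate 5 was its lowest female. The remaining called probes were a beta 1,3-galactosyltransferase at -1.31 on the log2 scale and a protein with a DNA polymerase III domain name, which was well above background on no T+ array and at least 2.99-fold lower. Peroxinectin, at -0.17 with all 4 T+ females and 0.35 without T+ replicate 5, was not called.

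The position of T+ replicate 5 differed between the named groups of probes. Of the 45 named probes, T+ replicate 5 was the lowest T+ female on 22, among them 7 of the 9 cuticle probes, and the highest on 12, among them 4 of 5 chitin-modifying and 4 of 5 mevalonate pathway probes. No T+ array was well above background on 13 of the 45, with 4 cuticle probes among them, so the order of the T+ females there was not measured. The 4 chitin-modifying probes all belong to the gene Dapma7bEVm014956. Relative to the W mean, the cuticle median was -5.04, -5.88, -5.31 and -5.22 in T+ replicates 3, 5, 7 and 9, and the mevalonate median was -1.65, -1.11, -1.56 and -1.93. The mevalonate median rests on the 4 synthase probes of 1 gene, and the reductase lay above every W female in T+ replicates 3, 7 and 9. Over the 223 probes called lower, T+ replicate 5 was below the other T+ females on 79, above them on 78 and among them on 66. On 96 of the 223, no T+ array was well above background.

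The largest changes lay in probes without a name. CUST_27401_PI429715507 read 3.67, 4.08, 3.75 and 3.64 in T+ and 11.88, 10.27, 9.66 and 12.24 in W, at least 29.6-fold lower (fitted log2 fold change -7.23, SE 0.84, adjusted p = 0.00109). CUST_33435_PI429715507 read 6.12, 4.19, 3.62 and 5.72 in T+ and 11.90, 12.81, 12.83 and 11.63 in W, at least 72-fold lower (fitted -7.38, SE 1.61, adjusted p = 0.0342). Both were well above background on no T+ array and on all 4 W arrays. CUST_69902_PI429715507 was higher, at 11.47, 9.79, 12.60 and 11.69 in T+ and 8.63, 3.99, 5.49 and 3.82 in W (fitted log2 fold change 5.90, SE 1.31, adjusted p = 0.0372), but was well above background on only 1 W array. CUST_62403_PI429715507 read 11.08, 8.32, 10.98 and 11.18 in T+ and 7.14, 5.37, 3.84 and 7.06 in W (fitted 4.54, SE 0.89, adjusted p = 0.0173) and was well above background on 2 W arrays. T+ replicate 5 was the T+ female nearest to W on both. Only the call of CUST_27401_PI429715507 held without each array in turn, and the others were lost without 5 to 9 of the 16 arrays, with adjusted p up to 0.136.

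Set against the bi-allelic clones, T+ showed few differences while T+ replicate 5 was included. Against the mean of clones 16 and 17, 4 probes were called lower in T+ (0.0231%) and 5 higher (0.0289%). At an unadjusted p-value below 0.05, 853 were lower and 734 higher. Against clone 16 alone 5 were lower and 3 higher, and against clone 17 alone 2 were lower and 3 higher. Without T+ replicate 5, 163 were called lower (0.951%) and 231 higher (1.35%) against the mean of both clones. With all 4 T+ females, of the 223 probes called lower against W, 3 were also called lower in T+ against that mean. Of the 55 called higher, 3 were also called higher. Both comparisons use the same 4 T+ arrays, so this overlap is not independent evidence. Counts against W in T+ and in the other mutants share the 4 W arrays, so their overlap is not given here.

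With all 4 T+ females, chitotriosidase-1 was the 1 named probe called against the mean of clones 16 and 17. T+ averaged 6.66 ± 0.30 on it, against 8.45 ± 0.27 in clone 16, 7.93 ± 0.61 in clone 17 and 8.43 ± 0.06 in W (SD, n = 4 each). The log2 difference of T+ from the mean of clones 16 and 17 was -1.53 (adjusted p = 0.0209), and from clone 16 it was -1.79 (adjusted p = 0.0215). From clone 17 alone the adjusted p was 0.295. For the other 3 probes of the gene the adjusted p against the mean of both clones was 0.0733 for chitinase 10, 0.261 for chitinase 1 and 0.234 for acidic chitinase. Without T+ replicate 5 it was between 0.0138 and 0.039 on all 4 probes, and 6 named probes were called. The other two were chitin deacetylase, higher in T+ by 1.35 on the log2 scale (adjusted p = 0.0455, against 0.54 with all 4 T+ females), and the synthase probe with the largest change, at -0.79 (adjusted p = 0.0454, against 0.54). None of the 9 cuticle probes was called in T+ against the mean of clones 16 and 17, with adjusted p of 0.54 or more, or of 0.112 or more without T+ replicate 5.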

How the data were processed

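The authors extracted total RNA from single females, labelled it with Cy3, hybridised it to a custom Agilent array and read it with Agilent Feature Extraction (version 10.5.1.1 per the file headers, 10.5 per the labels). The deposited scanner files give the intensity of each spot, among them a background-corrected processed signal on each array's own scale. The authors also deposited log2 values after quantile normalization, with each probe's median over the arrays subtracted. The file of W replicate 7 has rounded signals and no block of settings.

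For this work the log2 processed signals (floor 1) of gene probes were taken, outlier spots were left out, repeated spots were averaged and the arrays were quantile normalized. With outlier spots kept, values built by the same steps correlated with the deposited ones at r = 1.000 after centring. Probes brighter than 95% of the 2840 negative control spots in 4 or more arrays were tested, and 34138 were left out. limma 3.58.1 in R 4.3.3 fitted 1 mean per clone to 16 arrays, with two-sided tests and Benjamini-Hochberg adjustment; the script was tested on simulated data. The same steps were repeated without each array. Genes with a name came from a supplementary file of the study, whose fold changes were not used; up to 4 per function with the largest changes, and every probe of a gene with several, were given by animal, with 4 unnamed probes and further listed probes chosen after their values were seen. The members and lists were chosen with earlier results of these data known. The study's methods describe females reared singly from birth but do not say whether their mothers came from separate cultures. The p-values therefore measure the spread between single animals. The number of arrays and the signal over background limit the precision. The alternatives were other scalings, background corrections, filters, models, slide and replicate blocks, array weights and fold limits. The analysis of variance with Dunnett's test used mvtnorm 1.3.3.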

Additional observations from a re-analysis of the deposited data

Results flagged for a closer look

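Over the 51 listed probes and the 4 unnamed ones, 1 female lay far from the other 3 of her clone, relative to their range, in 10 T+ groups and 1 W group of the 110 groups examined. Chance gives this in about 1 in 20 groups if values are independent and normally spread. That does not hold here, as T+ replicate 5 recurs among the flags and several probes lie at the floor. The rate is thus only a rough guide. On cuticular protein 72 of Dapma7bEVm018552, T+ replicate 5 read 3.82 and the nearest T+ female 3.73, all of them at the floor of the array. On the 3-D2 peritrophin-like probe, T+ replicate 3 read 4.45 and the nearest 3.77, also below what counts as well above background. On chitotriosidase-1, T+ replicate 5 read 7.11 and the nearest 6.57, on the side of the W females. On CUST_62403_PI429715507, T+ replicate 5 read 8.32 and the nearest 10.98, again on the side of the W females. On hydroxymethylglutaryl-CoA reductase, T+ replicate 5 read 3.81 and the nearest 6.22. On tryptophan 2,3-dioxygenase and kynurenine formamidase, T+ replicate 5 read 6.93 and 7.09 and the nearest T+ females 3.83 and 4.00. T+ replicate 3 was the highest on ELOVL fatty acid elongase 4 (4.41, nearest 3.76), diphosphomevalonate decarboxylase (4.27, nearest 3.87) and phosphomevalonate kinase (4.09, nearest 3.87), 3 probes that were well above background on no T+ array. On phosphomevalonate kinase W replicate 7 also stood apart, at 6.77 with the nearest W female at 3.94, and the probe was well above background on no W array.

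Chitotriosidase-1 was also singled out because the change of T+ against W and that of clone 16 against W differed, by -1.79 on the log2 scale (T+ minus clone 16, limma, adjusted p = 0.0215), with all 4 T+ females below all 4 females of clone 16.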

How the results depend on the processing

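Lower and higher calls (223 and 55) moved by over 1.5 times under these settings. They were 147 and 28 with no background filter (51424 probes tested), 65 and 10 with the analysis of variance and Dunnett's test of the methods, 571 and 773 with array weights, and 433 and 544 in a model of the T+ and W arrays alone without T+ replicate 5. Higher calls alone moved to 25 when clones 16 and 17 were left out of the model, and to 21 with slide as a block. The slide block leaves out W replicate 7, whose slide is not known, and a fit of the same 15 arrays without the block, chosen after seeing the data, gave 191 lower and 24 higher calls. Within slide 1 (2 arrays each of T+ and W) there were 14 lower and 0 higher calls, with 555 and 679 at an unadjusted p below 0.05. Within slide 2 (2 T+ arrays, 1 W array) there were 0 and 0, with 695 and 357. Leaving out each array in turn gave 131 to 315 lower and 13 to 476 higher calls. Of all calls, 78.3% were lower with 75th percentile scaling, 42.5% with array weights and 89.2% with slide as a block (88.8% in the same 15 arrays without it). The median of the named probes (-1.89) lay between -2.24 and -1.85 without each array in turn and was -3.32 within slide 2. Against the mean of clones 16 and 17, the 9 calls became 394 without T+ replicate 5. Of the 45 named and 4 unnamed probes, 3 changed direction in some setting, none of them called with all 16 arrays. Chitin deacetylase (0.25) was -0.40 within slide 2. Tryptophan 2,3-dioxygenase (0.76) was -0.023 without T+ replicate 5 in both models and ran up to 1.03 without each array in turn. Peroxinectin (-0.17) was 0.35 without T+ replicate 5 in both models, 0.19 within slide 1 and 0.11 with array weights, and lay between -0.77 and 0.35 without each array in turn. The cause of these changes was not tested.

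With the replicate number as a block there were 214 lower and 55 higher calls, and CUST_33435_PI429715507, CUST_69902_PI429715507, RR-2 family member 23 (Dapma7bEVm001220), chitinase 1 and transforming growth factor beta-induced (Dapma7bEVm000310) lost their call, while the second alkylglycerone phosphate synthase gene gained one. Deviations of equally numbered T+ and W females correlated at 0.30, 0.35, -0.33 and 0.45 (replicates 3, 5, 7 and 9), so the numbers were not taken to pair the animals.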
